A study of Mus musculus with 8 samples.

Results

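The 36 genes described here are 19 genes of glycolysis, its glucose uptake and its outlet to lactate, and 17 other genes known to respond to low oxygen. They were chosen by name, with earlier results of these data known. Every non-control probe whose gene name is one of the 36 symbols or an alias was taken, which gave 55 of 39429 probes, 33 for the glycolysis genes and 22 for the other hypoxia genes. All 36 genes had a probe, 25 of them a single probe and 11 several, with up to 7 for Gapdh. 3 went by another name in the files: Pkm as Pkm2, Ero1a as Ero1l, and Mgarp, which was found by its accession, as 4930583H14Rik. For 35 genes the probe was well above background, by the scanner software's own call, on all 8 arrays, and these were tested. The probe of Mxi1, a repressor that antagonises Myc, was well above background on 1 of 8 arrays, under the minimum of 2, so Mxi1 was not tested. No member probe was saturated on any array.

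RNA of sorted mouse pro-B cells, early B-cell precursors, was measured on 8 Agilent arrays of 1 colour. The 4 groups had 2 arrays each. They were fetal liver pro-B cells with a let-7 retrovirus (let-7b in the protocol), fetal liver pro-B cells with an empty vector (MSCV), adult bone marrow pro-B cells with a Lin28b retrovirus, and adult bone marrow pro-B cells with an empty vector (pMIG). All cells, controls included, came from BALB/c Rag1 null mice, whose B lineage does not pass the pro-B stage because antigen receptor genes cannot be rearranged. A fetal liver sort drew on the pooled livers of 8 embryos on average at day 16 of gestation, and a bone marrow sort on 2 adult mice. Sorted cells were put in a 24-well plate on OP9 stromal cells with IL-7, the next day 12 wells received the let-7 or Lin28b virus and 12 the empty vector, and the GFP+ cells were sorted 4 days later. The sources used here give no oxygen level for these cultures. They do not say whether the numbered replicates came from separate sorts, so p-values measure only the spread between these samples, which may be technical.

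Glycolysis splits glucose into pyruvate in the cytosol, and cells that run it fast turn pyruvate into lactate, which leaves through a monocarboxylate transporter. When oxygen is low, the prolyl hydroxylases Egln1 and Egln3 no longer mark the transcription factor subunit HIF-1α, encoded by Hif1a, for destruction. HIF-1α then pairs with ARNT, binds DNA at hypoxia response elements, whose core reads ACGTG or GCGTG, and raises transcription of most glycolytic enzymes and of genes of mitophagy, matrix hydroxylation and blood vessel growth. The RNA-binding protein Lin28b keeps let-7 microRNAs from maturing, and in other cell types this pair has been linked to glucose metabolism.

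The agent added to the fetal liver cells and the start regions of 5 members are shown first. These members are the 4, from both classes, with the largest differences between the tissues that have a single start in the table used, together with Hif1a, the only member called lower in fetal liver cells. The mature let-7b is 22 bases long (mmu-let-7b-5p, chr15:85707325-85707346, plus strand, RefSeq, GRCm38.p6). Capitals mark its seed, bases 2 to 8.
let-7b: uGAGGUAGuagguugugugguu
The promoter windows run from 250 bases before to 50 bases after the start and come from RefSeq (GRCm38.p6). Capitals mark ACGTG and GCGTG on either strand (CACGT and CACGC on the printed one). The sequence CACGTG holds ACGTG on both strands and counts as 2 overlapping matches, and CACGCGTG holds GCGTG on both. The windows are chr11:120948817-120949116 on the plus strand for Slc16a3, the lactate exporter, chr3:51396498-51396797 on the minus strand for Mgarp, a mitochondrial protein, chr7:138909457-138909756 on the minus strand for Bnip3, a mitophagy receptor, chr8:45999801-46000100 on the minus strand for Ankrd37, an ankyrin repeat protein, and chr12:73907617-73907916 on the plus strand for Hif1a.
Slc16a3: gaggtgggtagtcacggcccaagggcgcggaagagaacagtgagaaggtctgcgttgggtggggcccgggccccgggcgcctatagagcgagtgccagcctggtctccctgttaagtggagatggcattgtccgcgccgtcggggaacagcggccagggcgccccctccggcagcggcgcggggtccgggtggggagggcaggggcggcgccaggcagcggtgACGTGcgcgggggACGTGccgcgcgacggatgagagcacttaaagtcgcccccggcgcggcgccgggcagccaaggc
Mgarp: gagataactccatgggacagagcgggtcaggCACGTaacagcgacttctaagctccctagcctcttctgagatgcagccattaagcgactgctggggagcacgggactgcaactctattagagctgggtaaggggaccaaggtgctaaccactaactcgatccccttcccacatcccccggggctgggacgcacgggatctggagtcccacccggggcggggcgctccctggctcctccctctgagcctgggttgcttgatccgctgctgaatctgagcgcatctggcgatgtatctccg
Bnip3: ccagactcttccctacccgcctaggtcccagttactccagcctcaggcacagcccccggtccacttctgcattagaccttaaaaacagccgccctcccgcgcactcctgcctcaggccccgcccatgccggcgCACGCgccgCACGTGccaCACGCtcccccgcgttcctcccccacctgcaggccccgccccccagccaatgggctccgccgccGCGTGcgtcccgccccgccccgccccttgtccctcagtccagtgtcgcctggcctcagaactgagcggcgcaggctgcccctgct
Ankrd37: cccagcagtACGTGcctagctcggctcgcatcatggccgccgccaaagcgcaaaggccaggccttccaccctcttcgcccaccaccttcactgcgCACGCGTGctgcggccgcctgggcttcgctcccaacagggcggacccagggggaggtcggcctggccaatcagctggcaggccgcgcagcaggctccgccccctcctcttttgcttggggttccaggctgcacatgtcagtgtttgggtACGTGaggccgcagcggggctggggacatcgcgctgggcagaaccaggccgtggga
Hif1a: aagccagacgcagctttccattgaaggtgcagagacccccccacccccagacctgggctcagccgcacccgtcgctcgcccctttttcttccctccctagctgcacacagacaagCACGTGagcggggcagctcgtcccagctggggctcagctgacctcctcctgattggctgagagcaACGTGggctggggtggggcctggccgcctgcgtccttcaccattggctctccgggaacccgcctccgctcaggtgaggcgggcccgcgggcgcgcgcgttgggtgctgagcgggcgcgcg

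Slc16a3 held ACGTG at positions -27 and -14 counted from the start base as 0, and Mgarp at -219. Bnip3 held the overlapping ACGTG pair at -108 and -107 and GCGTG at -117, -99 and -35. Hif1a, the member that was lower, held 3 matches to ACGTG, at -135, -134 and -70. Promoter windows were given for 34 of the 36 members, 11 of them with several starts, and not for Slc2a3 and Ndrg1. Of the 34 genes, 32 (94.1%) held either motif in some window, 16 of 18 glycolysis genes and 16 of 16 other hypoxia genes, against 12628 of 27025 genes in the whole table (46.7%). Counted by window, the share was 78.4% of 51 member windows and 43.8% of 32851 windows in all. The motif was in 25 of the 27 members called higher in fetal liver cells that had a window and in 6 of the 6 tested members that were not. Most members were described as hypoxia targets in earlier work, so the share is a description of the chosen genes and not a result about these cells.

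Levels are given as log2 of the processed signal relative to the 75th percentile of the same array, differences are on the log2 scale, and levels are not compared between probes. The share of spots well above background was 56.5% to 68.6%, and the 75th percentile signal was 271.5 to 487.9 on fetal liver arrays and 1925 to 2234 on bone marrow arrays, lowest on the second fetal liver empty vector array. All bone marrow arrays lay on slide 1, the replicate 1 arrays of fetal liver on slide 2 and the replicate 2 arrays on slide 3, so tissue, vector, slide and scan cannot be told apart between the tissues. The SD between replicates had a median over all genes of 0.22 and 0.29 in fetal liver cells with let-7 and with empty vector, and of 0.08 in both bone marrow groups. Of 11 pro-B markers on the array 11 were well above background on every array. A Lin28b probe read 0.35 and 0.07 in bone marrow cells with Lin28b, against -9.16 and -8.85 with empty vector, where neither array had it above background. The second Lin28b probe, which stood for the gene among those tested, read -5.86 and -5.75 with Lin28b, against -6.58 and -6.32 with empty vector (0.64, limma adjusted p = 1). Mature let-7 was not analysed here. The design allows no exact permutation p under 0.333 for 2 arrays against 2, so tests are those of limma's moderated model over all 22927 genes, with Benjamini-Hochberg adjusted p under 0.05 as a call.

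Fetal liver and bone marrow pro-B cells with empty vector differed in most glycolysis genes: 18 of 19 were higher in fetal liver cells, none was lower, and hexokinase 1 (Hk1) was not called. Over all genes 40.1% were called higher and 19.5% lower. The median difference of the glycolysis genes was 2.28, where that of all 22927 genes was 0.52, and 18 of 19 lay above that median. The excess of 1.76 over the median of all genes was 1.06 with normexp background correction and 1.23 without the filter on dim probes. The genes spanned the whole pathway, from glucose entry (Slc2a1, 2.33 ± 0.22, SE) to lactate exit (Slc16a3, 7.47 ± 0.26). After quantile scaling, which forces all arrays to the same distribution and put the median of all genes at 0.04 with 25.7% called higher and 26.5% lower, 15 of the 19 were higher and none lower, with a median of 1.54. In such sorted populations a change in RNA per cell and a change in the cells present cannot be told apart.

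**Figure D1:**
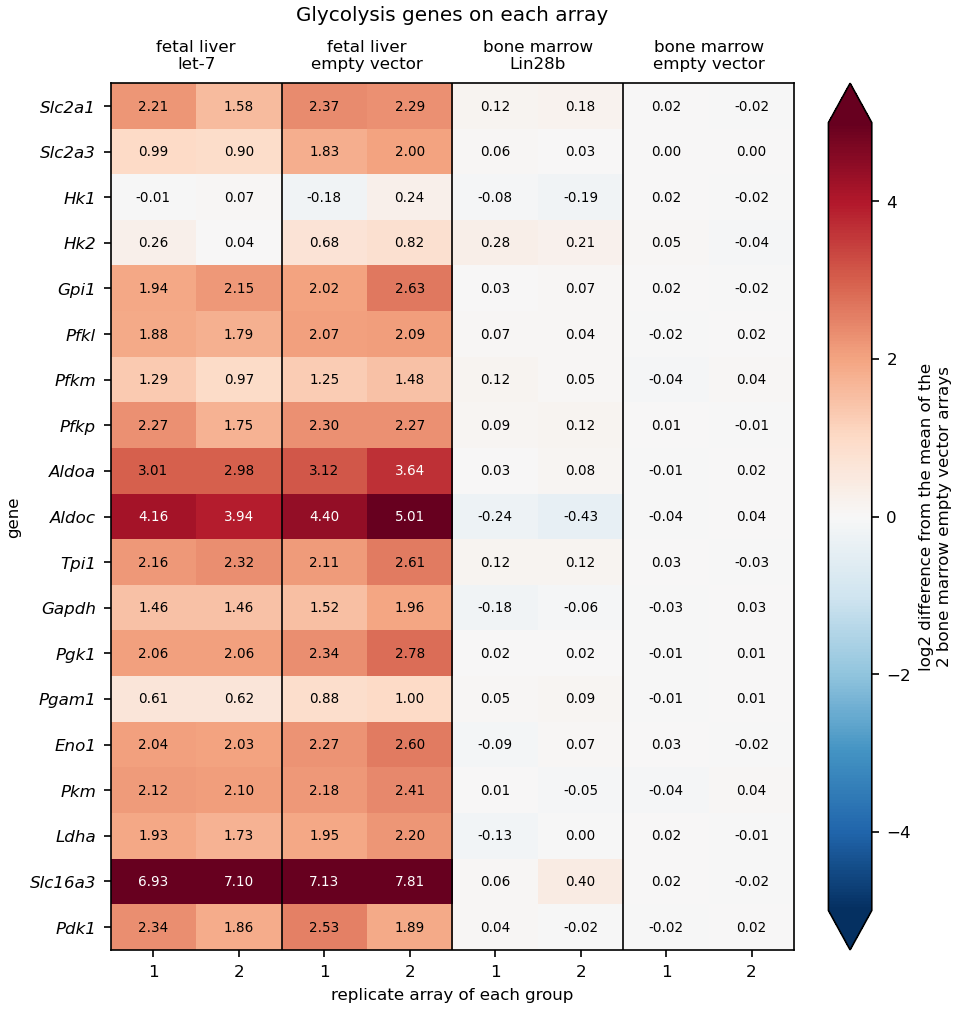
The 19 glycolysis genes (rows) on the 8 arrays (columns, 2 per group), each as the log2 difference from that gene's mean on the 2 bone marrow empty vector arrays. The 4 fetal liver columns are above that mean for 18 of the 19 genes, all but Hk1, while the 2 Lin28b columns stay near 0.

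The outlets of glycolysis were higher in fetal liver cells. Slc16a3, which encodes the lactate exporter MCT4, read 5.36 and 6.04 in fetal liver cells with empty vector, against -1.75 and -1.79 in bone marrow cells with empty vector. The arrays of both tissues were thus far apart, a 177-fold difference (adjusted p = 0.000293), and a second Slc16a3 probe gave 7.44. Ldha, lactate dehydrogenase A, which turns pyruvate to lactate, read 9.27 and 9.52 in fetal liver cells, against 7.34 and 7.31 in bone marrow cells (2.07 ± 0.15, adjusted p = 0.000611). Pdk1, a kinase that shuts the pyruvate dehydrogenase complex, read 2.93 and 2.29 in fetal liver cells, against 0.38 and 0.42 in bone marrow cells (2.21 ± 0.26, adjusted p = 0.00149). Slc16a3 had the largest difference of the 35 tested members.

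Of the 8 genes of glucose entry and the first steps, 7 were higher in fetal liver cells. The glucose transporter Slc2a1 read 4.13 and 4.05 in fetal liver cells, against 1.78 and 1.74 in bone marrow cells (adjusted p = 0.000922), and the high-affinity transporter Slc2a3 read 1.32 and 1.49, against -0.51 on both bone marrow arrays (1.91 ± 0.13, 0.000549). Of the 2 hexokinases, which trap glucose by phosphorylation, 1 was called. Hk2 read 1.25 and 1.38 in fetal liver cells, against 0.61 and 0.52 in bone marrow cells (0.75 ± 0.14, adjusted p = 0.00607), 0.23 above the median difference of all genes, and was not called after median scaling (-0.07) or normexp background correction (0.61). Hk1 read 3.09 and 3.51 in fetal liver cells, against 3.29 and 3.24 in bone marrow cells, so the groups overlapped (0.04 ± 0.17, 0.856), and it was called lower after median scaling (-0.78, 0.042). Gpi1, glucose phosphate isomerase, differed by 2.32 ± 0.22 (0.000935). Of the phosphofructokinase subunits, which set the committed step, Pfkp differed by 2.28 ± 0.19, Pfkl by 2.08 ± 0.11 and the muscle form Pfkm by 1.37 ± 0.16 (adjusted p from 0.000454 to 0.00149), and Pfkm was not called after median scaling (0.54).

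All 8 genes of the middle and lower pathway were higher in fetal liver cells. Aldoc, the brain form of aldolase, read 3.89 and 4.51 in fetal liver cells, against -0.54 and -0.47 in bone marrow cells, a 26.1-fold difference (4.71 ± 0.23, adjusted p = 0.00039). Aldoa, the form used by most tissues, read 9.67 and 10.20, against 6.54 and 6.57 (3.38 ± 0.19, 0.00047). Pgk1, phosphoglycerate kinase, the first step that yields ATP, read 8.25 and 8.69 in fetal liver cells, against 5.90 and 5.92 in bone marrow cells (2.57 ± 0.17, 0.00056). In all 3 genes no fetal liver array came near a bone marrow array. Eno1, enolase, read 8.59 and 8.92 in fetal liver cells, against 6.35 and 6.30 in bone marrow cells (2.43 ± 0.16, 0.000536). Tpi1, triose phosphate isomerase, read 7.19 and 7.69 in fetal liver cells, against 5.11 and 5.05 in bone marrow cells (2.36 ± 0.19, 0.000735). The remaining enzymes of this stretch were higher too: the pyruvate kinase Pkm by 2.30 ± 0.13, Gapdh by 1.74 ± 0.17 and the mutase Pgam1 by 0.94 ± 0.12, the last 0.42 above the median of all genes and not called after median scaling (0.12) or normexp (0.74).

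Quantile scaling ended the calls of 3 glycolysis genes. Gapdh then differed by -0.11 (adjusted p = 0.475), Pgam1 by 0.01 (0.958) and Ldha by 0.29 (0.125), and none was called, while Slc16a3 stood at 7.08, Aldoc at 4.55, Slc2a1 at 2.22 and Pfkl at 2.02. Other probes of Gapdh and Ldha gave other values. All 7 Gapdh probes were called with 75th percentile scaling, at 1.31 to 1.93. After quantile scaling 4 of them were called higher, at 0.52 to 1.47, and the other 3 lay at -0.11, -0.11 and 0.31. The other Ldha probes, 2 and 3, differed by 2.29 and 1.40 after quantile scaling (adjusted p = 0.00039 and 0.00141). Gapdh has many processed copies in the mouse genome. Its probe 4, at 0.31, is annotated on chromosome 8 and the other 6, among them both at -0.11, on chromosome 6. The values of Gapdh and Ldha after quantile scaling are thus uncertain, and why their probes differ was not tested.

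**Figure D2:**
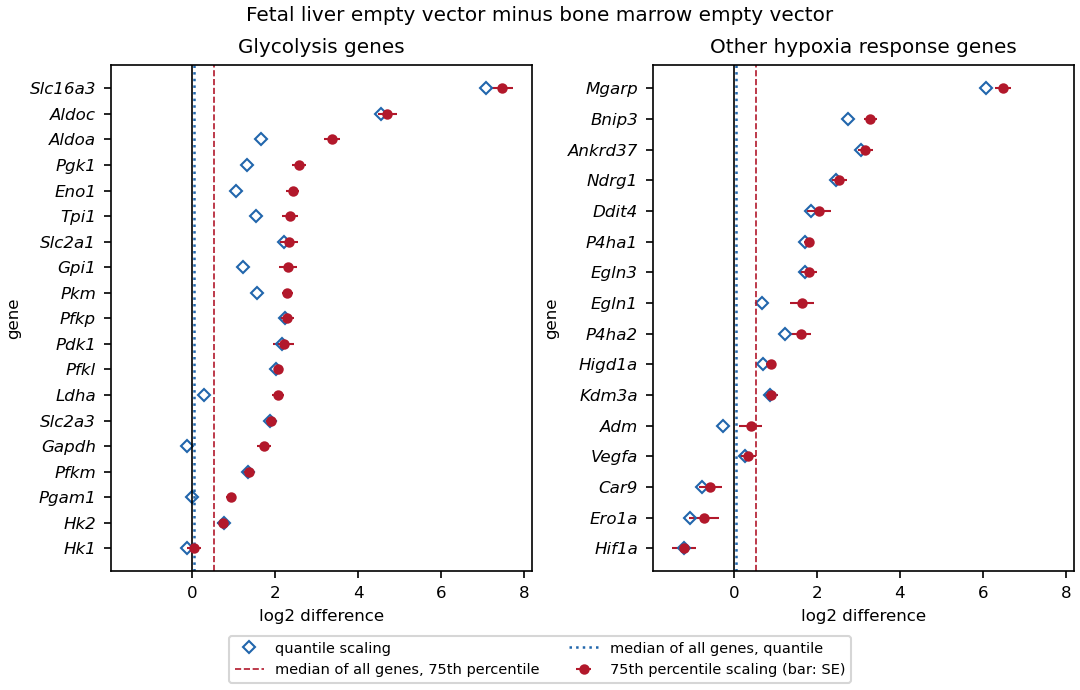
Differences between fetal liver and bone marrow pro-B cells with empty vector (x axis, log2) for each tested member (y axis), as fitted after 75th percentile scaling (filled, bar for the SE, n = 2 per group) and after quantile scaling (open). Most members lie right of the median of all genes (dashed, 0.52; dotted, 0.04), and the open symbols of Gapdh, Pgam1 and Ldha lie near 0.

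Among the 17 other hypoxia response genes, 11 of the 16 tested were higher in fetal liver cells, Hif1a was lower, and 4 were not called: Vegfa, Ero1a, Car9 and Adm. The shares over all genes were 40.1% higher and 19.5% lower. The median difference of these 16 genes was 1.63, where that of all genes was 0.52. After quantile scaling again 11 were higher and 1 lower (median 1.05), where 25.7% of all genes were higher and 26.5% lower. The excess of 1.11 over the median of all genes was 0.58 with normexp and 0.59 without the filter on dim probes. Mgarp, a mitochondrial protein, read 2.73 and 2.50 in fetal liver cells, against -3.93 and -3.81 in bone marrow cells. That is an 89.3-fold difference (6.48 ± 0.19, adjusted p = 0.000273). Bnip3 read 6.66 and 6.83, against 3.31 and 3.60 (3.29 ± 0.16, 0.000371), and its other 2 probes gave 3.42 and 3.44. Ankrd37 read 3.96 and 3.83, against 0.70 and 0.75 (3.17 ± 0.18, 0.000462). In these 3 genes fetal liver and bone marrow arrays lay far apart.

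Ndrg1, a gene of the stress response and cell differentiation, read 3.67 and 4.13 in fetal liver cells, against 1.38 and 1.34 in bone marrow cells (2.54 ± 0.18, adjusted p = 0.000591). Ddit4, an inhibitor of mTORC1 signalling, differed by 2.05 ± 0.30 (0.00264). The oxygen-sensing prolyl hydroxylases, themselves targets of the pathway that they restrain, were higher: Egln3 by 1.80 ± 0.20 (0.00134) and Egln1 by 1.64 ± 0.30 (0.00609, 0.67 after quantile scaling). The Egln1 probe was dim, at -3.59 and -3.97 in fetal liver cells, against -5.55 and -5.30 in bone marrow cells, so the size of its difference is uncertain. The collagen prolyl hydroxylases P4ha1 and P4ha2, which act in the endoplasmic reticulum on procollagen, were higher by 1.81 ± 0.13 (0.000578) and 1.62 ± 0.24 (0.00305). Stromal markers were mostly lower in fetal liver cells (1 of 11 higher and 6 lower, median -1.33), where 40.1% of all genes were higher and 19.5% lower. The summed level of the stromal markers was 9.74 and 12.9 in fetal liver cells, against 20.5 and 24.5 in bone marrow cells. Lum was below the minimum. The part of stromal RNA in the values of P4ha1 and P4ha2 was not tested. The smallest called differences among the other hypoxia genes were those of Higd1a, a mitochondrial protein of the respiratory chain (0.90 ± 0.12, 0.00202), and the histone demethylase Kdm3a (0.89 ± 0.17, 0.0066). Neither was called after median scaling (0.08 and 0.07) or normexp (0.72 and 0.62).

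Hif1a read 0.22 and -0.43 in fetal liver cells, against 1.16 and 1.05 in bone marrow cells, so its transcript fell by 1.21 ± 0.29 (adjusted p = 0.0146), and by 1.74 relative to the median of all genes. The groups did not overlap. The fetal liver values differed by slide, as the let-7 arrays on the same slides read 0.30 and -0.32. Without either bone marrow empty vector array Hif1a was not called (adjusted p = 0.074 without replicate 1 and 0.0596 without replicate 2, over a range of 0.000785 to 0.074 in 18 alternatives). Ero1a, an oxidase of disulphide formation, read -1.96 and -2.94 in fetal liver cells, against -1.73 on both bone marrow arrays (-0.72 ± 0.36, 0.131). Car9, a carbonic anhydrase often used as a marker of hypoxia, read -1.35 and -1.98, against -0.99 and -1.21 (-0.57 ± 0.27, 0.12). Ero1a and Car9 were called lower after median scaling (-1.54 and -1.39) and without the first fetal liver empty vector array (-1.21 and -0.89), and Ero1a was at 0.11 with normexp. Adm, the vasodilator peptide adrenomedullin, differed by 0.40 ± 0.28 (0.262).

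**Figure D3:**
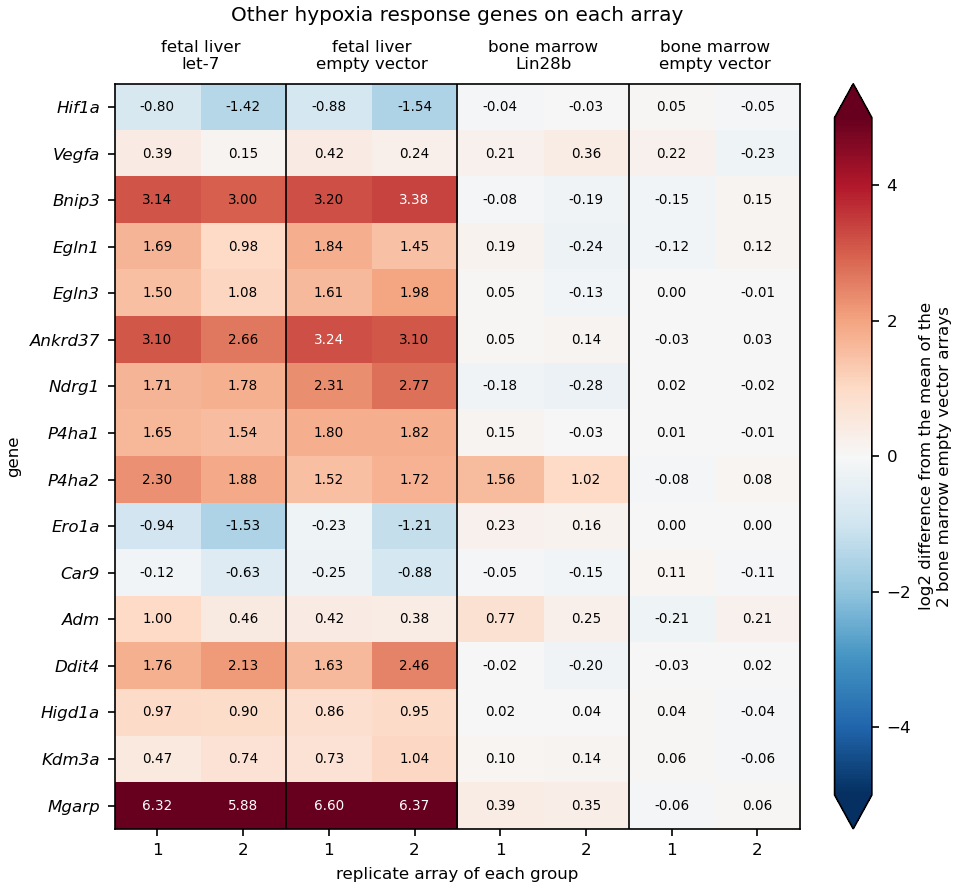
The 16 tested hypoxia response genes outside glycolysis (rows) on the 8 arrays (columns, 2 per group), each as the log2 difference from that gene's mean on the 2 bone marrow empty vector arrays. Mgarp is the darkest row on all 4 fetal liver arrays, Hif1a, Ero1a and Car9 are below the mean on the same arrays, and P4ha2 is above it by more than 1 on both Lin28b arrays.

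Probes of a gene did not always give the same answer. The Vegfa probe used for the gene, probe 2 (chr17:46154387-46154446, mm9, as annotated in the files), differed by 0.33 ± 0.20 between fetal liver and bone marrow cells (adjusted p = 0.195). Probe 1 (chr17:46162376-46162435) read 1.81 and 2.56 in fetal liver cells, against 0.36 and 0.29 in bone marrow cells, and was called (1.87 ± 0.25, 0.00216). Vegfa encodes the growth factor for blood vessels, and which of its transcripts each probe reads was not tested. For Hk1, probe 1 (chr10:61731856-61731915) differed by 0.04 and probe 2 (chr10:61732717-61732776) by 0.69 ± 0.16 (0.0146). With the mean of a gene's probes both genes were called, Vegfa at 1.10 and Hk1 at 0.36. The 2 Pfkp probes were both called, at 2.28 and 1.29. In the remaining 8 genes with several probes, every probe was called higher.

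**Figure D4:**
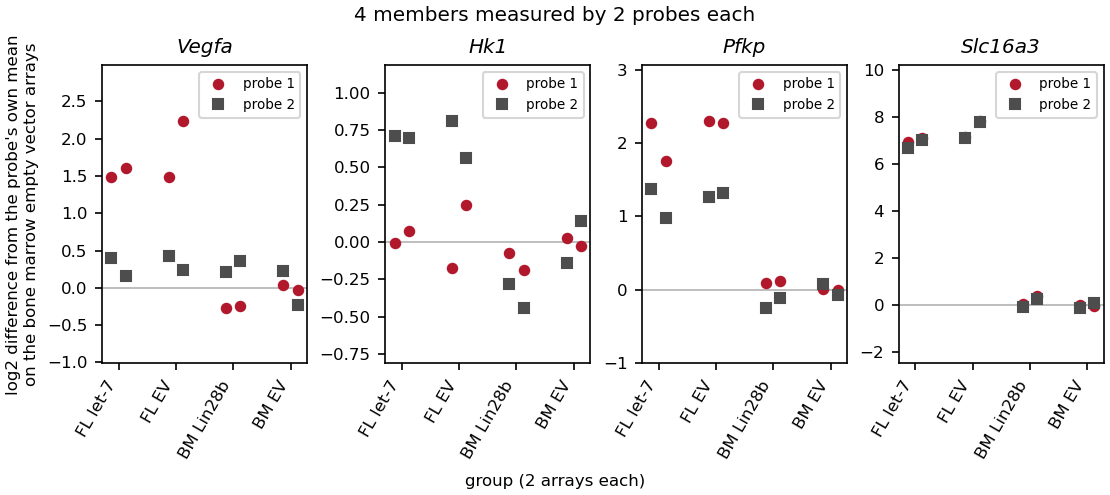
Vegfa, Hk1, Pfkp and Slc16a3 by probe, on the 2 arrays of each group (x axis), as the log2 difference from the same probe's mean on the bone marrow empty vector arrays (y axis, a scale of its own per gene; FL, fetal liver; BM, bone marrow; EV, empty vector). The 2 probes of Slc16a3 coincide, whereas only probe 1 of Vegfa and only probe 2 of Hk1 stand clear of 0 on all 4 fetal liver arrays.

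Neighbouring pathways were read from lists of other genes. Of 26 tested isoforms and regulators of glycolysis, 12 were higher and 4 lower in fetal liver cells (median 0.74), where 40.1% of all genes were higher and 19.5% lower with a median of 0.52. After quantile scaling 8 were higher and 5 lower (median 0.26). Eno2, the neuronal enolase, was higher by 3.98 ± 0.31 (adjusted p = 0.000694) and the lactate and pyruvate carrier Slc16a1 by 2.65 ± 0.24 (0.000847). Pfkfb2, which makes the activator of phosphofructokinase, was lower, not well above background on either fetal liver array and at least 2.80-fold lower there. Of 7 pentose phosphate genes 3 were higher and 1 lower (median 0.43), shares near those of all genes. Among the 3 was the lactonase Pgls (1.83 ± 0.21, 0.00142).

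The pyruvate dehydrogenase complex and citric acid cycle, which burn pyruvate in mitochondria, had 3 of 23 genes higher and 7 lower in fetal liver cells, with a median of -0.18 where all genes had 0.52. Over all genes 40.1% were higher and 19.5% lower. After quantile scaling 10 of the 23 were lower and 0 higher by limma's test, where 26.5% of all genes were lower and 25.7% higher. Sdhd, a subunit of succinate dehydrogenase, fell by 0.97 ± 0.12 (adjusted p = 0.00186), Dld, a subunit shared by pyruvate and oxoglutarate dehydrogenase, by 1.65 ± 0.27 (0.00408), and the succinyl-CoA ligase subunits Suclg2 and Suclg1 by 1.47 ± 0.25 (0.00428) and 0.67 ± 0.12 (0.00502).

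Of 7 tested genes of oxygen sensing, 6 were higher in fetal liver cells and none lower, where 40.1% of all genes were higher and 19.5% lower. Hif3a, an alpha subunit whose products include inhibitors of HIF-1, differed by 4.74 ± 0.28 (adjusted p = 0.000505). Epas1, which encodes HIF-2α, differed by 2.38 ± 0.18 (0.000674), Cited2, a competitor of HIF-1α for its coactivator, by 1.10 ± 0.16 (0.00291) and Hif1an, the asparaginyl hydroxylase that blocks that coactivator, by 0.77 ± 0.12 (0.00363). Arnt, the partner subunit and the 1 gene not called, differed by 0.12 ± 0.14 (0.477). Of 35 further hypoxia targets, among them Gpi1 and Hk2 of the members, 26 were higher and 6 lower (median 1.26), to be read against the same shares of all genes. Stc2, a secreted glycoprotein, was higher by 3.41 ± 0.16 (0.000371), the glycogen phosphorylase Pygl by 3.98 ± 0.22 (0.000437), Ndufa4l2, a mitochondrial protein, by 3.68 ± 0.21 (0.000481) and Bnip3l, the relative of Bnip3, by 2.16 ± 0.13 (0.000509).

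Markers of other blood cells moved with the same contrast. Markers of T, NK and innate lymphoid cells were higher in fetal liver cells in 6 of 6 tested, at a summed level of 9.06 and 14.9, against 1.91 and 2.01 in bone marrow cells. Dendritic markers were higher in 3 of 3, at 222 and 212, against 57.1 and 56.5. Myeloid markers were higher in 3 and lower in 1 of 7, at 61 and 28.7, against 9.05 and 9.49. Pro-B markers themselves were higher in 6 of 11 and summed to 1120 and 1500, against 513 and 469. Over all genes 40.1% were higher. After quantile scaling 3 pro-B markers were higher and 1 lower, with a median of 0.12 in place of 0.83. Erythroid markers summed to 0.385 and 0.301, against 0.149 and 0.146, with Hbb-b1 and Alas2 among those below the minimum. Hepatocyte markers summed to 0.179 and 0.297, against 0.0337 and 0.0589, with Alb, Apoa1 and Ttr among those below it. These sums include the untested markers. Each fetal liver empty vector array had 3 of 7 erythroid and 1 of 7 hepatocyte markers well above background, so the sums are uncertain. Of 4 tested erythroid markers 2 were higher and 0 lower by limma's test, and 0 higher and 1 lower after quantile scaling. Of 2 tested hepatocyte markers 1 was higher and 0 lower, and 1 higher and 1 lower after quantile scaling. The part of these cells in the differences of the glycolysis and hypoxia genes was not tested.

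Adding let-7 to fetal liver pro-B cells changed no member past the threshold. Only 7 of 22927 genes were called in this comparison, 5 higher (0.0218%) and 2 lower (0.00872%), and none of the 35 tested members was among them. The glycolysis genes nonetheless had values on the same side: 19 of 19 fold changes were negative, where 57.2% were negative over all genes, and in 14 of 19 both let-7 arrays lay below both empty vector arrays, where 18.2% did so over all genes. The median difference was -0.28, with -0.06 over all genes. Of the 16 other hypoxia genes 11 were negative and 5 positive, where 42.8% of all genes were positive, with a median of -0.22. In 6 of them both let-7 arrays lay below both empty vector arrays and in 2 both lay above, where 11.9% of all genes were above. At an unadjusted p under 0.05 there were 6 glycolysis genes and 2 other hypoxia genes, all negative, where 5.35% of all genes passed as negative and 4.42% as positive.

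These values depended on slide and on scaling. On the slide of the replicate 1 arrays the glycolysis genes had a median of -0.16 (all genes, -0.01) and on that of the replicate 2 arrays -0.50 (all genes, -0.12). The second slide held the empty vector array with a 75th percentile signal of 271.5. For the other hypoxia genes the medians were -0.09 and -0.31. After quantile scaling 15 glycolysis genes were negative and 4 positive, with a median of -0.17 (all genes, -0.01). Relative to the median of all genes, the glycolysis median was -0.23, and -1.11 with normexp background correction. That of the other hypoxia genes was -0.16, and -0.74 with normexp.

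**Figure D5:**
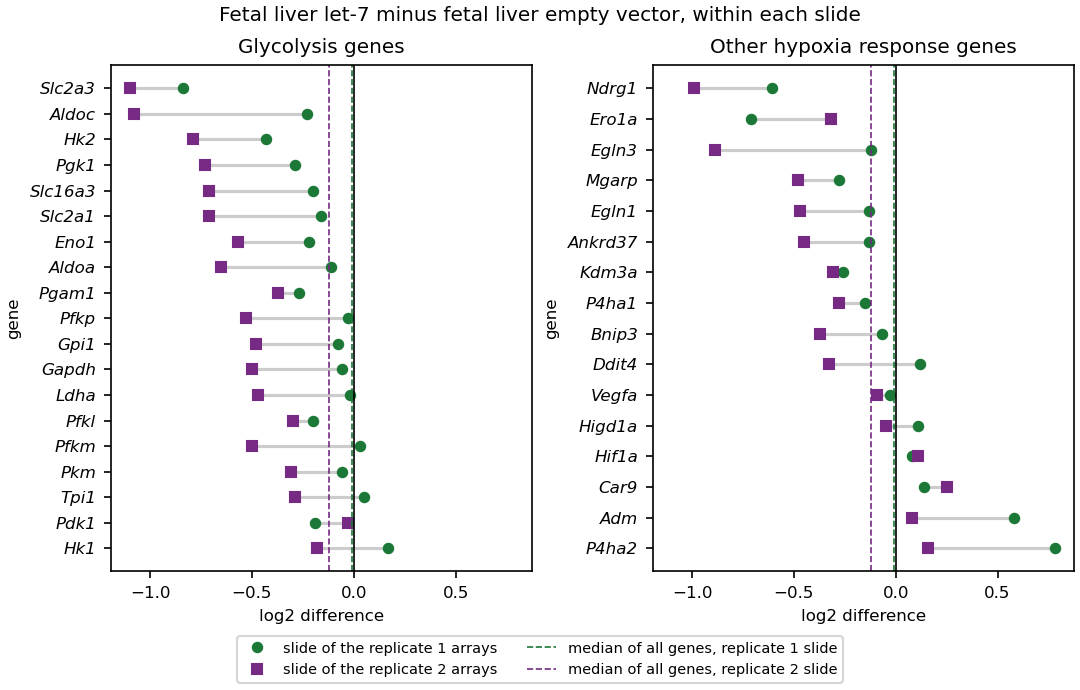
Differences between fetal liver pro-B cells with let-7 and with empty vector (x axis, log2) for each tested member (y axis), separately on the slide of the replicate 1 arrays (circles) and that of the replicate 2 arrays (squares), with the medians of all genes as dashed lines. Slc2a3, Hk2 and Ndrg1 are below -0.4 on both slides, and every glycolysis gene but Pdk1 is further left on the second slide than on the first.

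Slc2a3, the high-affinity glucose transporter, came nearest to a call. It read 0.48 and 0.39 in fetal liver cells with let-7, against 1.32 and 1.49 with empty vector, a difference of -0.97 ± 0.13 (limma adjusted p = 0.099), or -0.84 and -1.10 on the 2 slides. All 4 arrays stayed above the bone marrow empty vector arrays, which read -0.51. The call depended on the setting: limma's adjusted p was 0.0481 after quantile scaling, 0.0262 with slide as a random block and 0.0268 with a robust trended variance. It was 0.245 with replicate number as a block, and with only the 4 fetal liver arrays in the fit no gene was called. The range was 0.0262 to 1 in 19 alternatives, over which the difference stayed between -1.06 and -0.88. The main fit shares 1 spread per gene across all 8 arrays, and bone marrow arrays varied less between replicates than fetal liver arrays.

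Ndrg1 read 3.07 and 3.14 in cells with let-7, against 3.67 and 4.13 with empty vector (-0.80 ± 0.18, adjusted p = 0.27), and was called only without the first empty vector array (-1.03, 0.0414; range 0.0414 to 1). Hk2 read 0.82 and 0.60, against 1.25 and 1.38 (-0.61 ± 0.14, 0.27). In these 2 genes, as in Slc2a3, no array of either group overlapped with the other group. Next came Pgk1 (-0.51 ± 0.17, 0.438), Aldoc (-0.66 ± 0.23, 0.464) and Pgam1 (-0.32 ± 0.12, 0.474). Members with large differences between the tissues were not called here: Slc16a3 differed by -0.45 ± 0.26 (0.647), Mgarp by -0.38 ± 0.19 (0.597), Aldoa by -0.38 ± 0.19 (0.603), Slc2a1 by -0.44 ± 0.22 (0.607) and Hif1a by 0.09 ± 0.29 (0.961). Ldha differed by -0.25 ± 0.15 (0.668) and by 0.03 after quantile scaling.

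P4ha2 was among the few with a positive value, at -0.85 and -1.26 with let-7, against -1.63 and -1.42 with empty vector (0.47 ± 0.24, 0.619). Stromal markers had 8 of 11 positive values in the same comparison (median 0.90), where 42.8% of all genes were positive (median -0.06). None of the 11 was called by limma. Their summed level was 20.8 and 15.9 with let-7, against 9.74 and 12.9 with empty vector, and their part in the value of P4ha2 was not tested. None of the 5 neighbouring gene lists had a gene called by limma with let-7 (1, Hif3a, after quantile scaling, at -2.30 and 0.0354), where 8 of 26 glycolytic isoforms and regulators, 2 of 7 pentose phosphate, 1 of 23 citric acid cycle, 3 of 7 oxygen-sensing genes and 6 of 35 further hypoxia targets had an unadjusted p under 0.05. Among all genes 2240 of 22927 had an unadjusted p under 0.05, in either direction. The lowest adjusted p in the 5 lists were those of Pfkfb1, a liver and muscle form of the same enzyme as Pfkfb2 (-1.40 ± 0.20, 0.12), and of Hif3a (-2.02 ± 0.28, 0.12).

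In bone marrow pro-B cells, Lin28b gave no call in any member. Of all 22927 genes 0 (0%) were called by limma, with 447 higher (1.95%) and 372 lower (1.62%) at an unadjusted p under 0.05. Fitted probe by probe, 1 of 28409 probes was called, which was the first Lin28b probe above. The glycolysis genes had 13 positive and 6 negative values with a median of 0.05, and the other hypoxia genes 9 and 7 with a median of 0.04. Over all genes 40.7% were positive and 59.3% negative, with a median of -0.04. In 12 of the 19 glycolysis genes both Lin28b arrays lay above both empty vector arrays, and in 3 both lay below. Among all 22927 genes 4223 lay above in this way and 7397 below. Of the 16 other hypoxia genes 6 lay above and 1 below. The spread was small in these arrays, with median SDs of the members of 0.05 with Lin28b and 0.03 with empty vector. The test does not use this spread alone. It shares 1 spread per gene across all 8 arrays, and the median SDs of the members in fetal liver cells were 0.22 with empty vector and 0.16 with let-7. All 19 glycolysis genes lay between -0.33 (Aldoc, ± 0.23) and 0.24 (Hk2, ± 0.14), and Slc16a3 read -1.71 and -1.37 with Lin28b, against -1.75 and -1.79 with empty vector (0.23 ± 0.26, adjusted p = 1).

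P4ha2 stood apart from the other members, at -1.58 and -2.13 in bone marrow cells with Lin28b, against -3.23 and -3.06 with empty vector (1.29 ± 0.24, unadjusted p = 0.00221, adjusted p = 1). It was the only one of the 35 members with an unadjusted p under 0.05. All 11 tested stromal markers were also positive in this comparison, with a median of 1.07, where 40.7% of all genes were positive. None of the 11 was called by limma. Their summed level was 53.1 and 34.6 with Lin28b, against 20.5 and 24.5 with empty vector, with 11 of 12 well above background on all 4 arrays. The part of stromal RNA, for instance from the OP9 layer, in the value of P4ha2 was not tested. The next largest values were those of Adm (0.51 ± 0.28), Mgarp (0.37 ± 0.19) and Vegfa (0.28 ± 0.20), each with an adjusted p of 1. The 5 neighbouring lists had 0 calls by limma. An unadjusted p under 0.05 was found in 3 of 26 glycolytic isoforms and regulators, in 1 of 35 further hypoxia targets and in no gene of the other lists. Among all genes 819 of 22927 had one, in either direction.

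Fetal liver cells with let-7 were also compared with bone marrow cells with Lin28b, 2 groups that share no array with the empty vector comparison. Of the glycolysis genes 17 of 19 were higher and none lower, where 39.5% of all genes were called higher and 18.5% lower. Slc16a3 differed by 6.79 ± 0.26 (adjusted p = 0.00058), Aldoc by 4.38 ± 0.23 (0.000637) and Aldoa by 2.94 ± 0.19 (0.000799). The median was 1.90, where all genes had 0.50, and this excess of 1.40 was 0.24 with normexp background correction and 0.84 without the filter on dim probes. Hk1 (0.16 ± 0.17, 0.441) and Hk2 (-0.09 ± 0.14, 0.588) were not called, and Hk2 read 0.82 and 0.60 in fetal liver cells with let-7, against 0.84 and 0.77 in bone marrow cells with Lin28b. Slc2a3 was higher by 0.89 ± 0.13 (0.0027), and read 0.48 and 0.39, against -0.45 and -0.48, but was not called after median scaling (0.09). After quantile scaling 14 were higher, where 24.7% of all genes were higher and 25.2% lower, with Gapdh at -0.07 (0.654), Ldha at 0.30 (0.121) and Pgam1 at -0.34 (0.0636) not called.

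Of the 16 other hypoxia genes 10 were higher and 2 lower in fetal liver cells with let-7 (median 1.12), where 39.5% of all genes were higher and 18.5% lower. After quantile scaling 9 were higher and 2 lower, where 24.7% of all genes were higher and 25.2% lower. The excess of these hypoxia genes over the median of all genes, 0.62, was 0.22 with normexp and 0.27 without the filter on dim probes. Mgarp differed by 5.73 ± 0.19 (adjusted p = 0.000578), Bnip3 was 9.19-fold higher (0.000598) and Ankrd37 differed by 2.78 ± 0.18 (0.000795). Hif1a read 0.30 and -0.32, against 1.06 and 1.07 in bone marrow cells with Lin28b, and fell by 1.08 ± 0.29 (0.0228). Ero1a read -2.67 and -3.26, against -1.50 and -1.57, and fell by 1.43 ± 0.36 (0.0178). Neither was called without either Lin28b array or without the second let-7 array, with adjusted p of 0.0717 to 0.093, and Ero1a was at 0.18 after normexp.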

How the data were processed

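RNA of 8 samples was hybridised to Agilent arrays of 1 colour, 2 per group, and 0 columns of other samples were present. The deposited scanner files hold processed signal intensity values made by Agilent Feature Extraction 9.5.3.1, per the file headers. A deposited table of the authors holds log2 values of the same arrays, whose scale and centring are not stated, and was used only within a tissue as an alternative. From the intensities, log2 minus each array's 75th percentile was taken, and 1377 control spots and 31 probes with outlier spots were left out. Probes well above background on at least 2 of 8 arrays were kept (28409), and the probe with the highest mean stood for a gene (22927 genes). limma 3.58.1 in R 4.3.3 fitted 1 mean per group over all 8 arrays (lmFit, eBayes), with Benjamini-Hochberg adjustment over all genes. Precision is limited by having 2 arrays per group. The methods were tested on simulated data. The members and lists were chosen with earlier results of these data known. Values per array follow a rule (up to 10 called members with the largest change between the tissues in each direction, up to 6 with the smallest p elsewhere, and members whose probes disagree), and those of other members were chosen after their values were seen. From each list of neighbouring genes up to 4 are named by smallest adjusted p, and Arnt was added after its value was seen.

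Alternatives were quantile, median and normexp scaling, other filters, the mean of a gene's probes, a robust trended variance, slide or replicate number as a block, the authors' table, fewer arrays in the fit, and each array left out. Same-numbered arrays deviated together in fetal liver (correlation 0.517, where a number is also a slide) and not in bone marrow (-0.0553), and the labels state no pairing.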

Additional observations from a re-analysis of the deposited data

How the results depend on the processing

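The counts of members called higher between the tissues kept within 1.5 times of the main count under every alternative run, except for the other hypoxia genes in fetal liver cells with let-7 against bone marrow cells with Lin28b, of which 6 were called higher after median scaling, against 10. Counts of members called lower moved more. Between the empty vector groups, median scaling called 1 glycolysis gene and 3 other hypoxia genes lower, and the replicate block called 3 other hypoxia genes lower (Hif1a, Car9 and Ero1a), with no other member count changed by the pairing. Leaving out 1 array gave 0 to 3 other hypoxia genes lower there, 0 without either bone marrow empty vector array and 3 without the first fetal liver empty vector array. With let-7, 1 glycolysis gene, Slc2a3, was called lower after quantile scaling, with slide as a random block and with a robust trended variance, and leaving out 1 array gave 0 to 1 glycolysis genes and 0 to 1 other hypoxia genes, the calls coming without the first fetal liver empty vector array. For let-7 against Lin28b cells, median scaling called 1 glycolysis gene and 4 other hypoxia genes lower, normexp called 1 other hypoxia gene lower, and leaving out 1 array gave 0 to 2. Between the empty vector groups every tested member was followed through the alternatives. In the other comparisons only some members were, apart from quantile scaling. Signs turned in some members. Between the empty vector groups they did after median scaling for Hk1 (-0.78), Hk2 (-0.07), Vegfa (-0.49) and Adm (-0.43), after normexp for Hk1 (-0.21) and Ero1a (0.11), and after quantile scaling for Hk1 (-0.11), Gapdh (-0.11) and Adm (-0.26), and Hk1 ranged from -0.17 to 0.25 with 1 array left out. With let-7, Ldha was 0.04 in the authors' table and 0.03 after quantile scaling, and Hif1a ranged from -0.23 to 0.42 with 1 array left out. Quantile scaling also turned Hk1 (0.03), Tpi1 (0.04) and Gapdh (0.01) with let-7. With Lin28b it turned Eno1 (0.10), Pkm (0.01) and Ldha (0.03). For let-7 against Lin28b cells, Pgam1 was -0.26 after median scaling, -0.18 after normexp and -0.34 after quantile scaling. Gapdh was -0.07 and Adm -0.30 after quantile scaling, Ero1a was 0.18 after normexp, and Hk2 ranged from -0.20 to 0.02 with 1 array left out. After median scaling Pfkm (0.54), Pgam1 (0.12), Higd1a (0.08) and Kdm3a (0.07) were not called between the empty vector groups, and after normexp Hk2 (0.61), Pgam1 (0.74), Higd1a (0.72) and Kdm3a (0.62) were not. The cause of these changes was not tested. The median difference of all genes between the empty vector groups was 0.52 with 75th percentile, 0.04 with quantile, -0.30 with median and 0.98 with normexp scaling, and the calls over all genes split into 9194 higher and 4463 lower, 5884 and 6085, 4348 and 8269, and 8787 and 1647 in that order. With let-7, all genes gave 5 higher and 2 lower calls, and 305 and 217 without the first fetal liver empty vector array. Fetal liver arrays had a 75th percentile signal of 271.5 to 487.9, against 1925 to 2234 on bone marrow arrays, and a larger spread between replicates.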
